A study of Mus musculus with 6 samples.

Results

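The dual specificity phosphatase (DUSP) and Sprouty/Spred genes that restrain mitogen-activated protein (MAP) kinases were examined in Tregs with and without deletion of Zfp335. They were the rows of the count table whose symbol was Dusp1, Dusp2, Dusp4, Dusp5, Dusp6, Dusp10, Spry1, Spry2, Spred1 or Spred2. All 10 symbols were present among the 13709 rows, and all 10 passed the filter on low counts.

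The data were bulk RNA-Seq counts of sorted CD4+YFP+CD25+ Tregs, which are defined by the transcription factor Foxp3 and hold other T cells in check. WT mice carried Foxp3Cre, and KO mice carried Foxp3Cre and Zfp335fl/fl, with 3 samples per genotype. Both genotypes therefore carried the Cre transgene with YFP in the Foxp3 locus, which limits deletion of the floxed gene to cells that have switched on Foxp3. The mice were 2 weeks old by the study's methods. The paper reports early lethal autoimmune inflammation in KO mice, and ascribes the loss of Treg signature genes in KO Tregs to that inflammation. Effects of the deletion within the cells and effects of inflammation cannot be told apart in these samples. The labels disagreed on lymph nodes or spleen as the source, and nothing said whether a sample came from 1 mouse or several, so the spread between samples may be partly technical.

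In T cells, engagement of the antigen receptor or of growth factor and cytokine receptors switches on Ras, which drives the kinase cascade from Raf and MEK to ERK, while stress and costimulation drive the parallel JNK and p38 kinases. DUSP proteins of the MAP kinase phosphatase class remove phosphate from the threonine and the tyrosine that hold these kinases active, and many of their genes are themselves switched on by the kinases, so that the pathway brakes itself. Sprouty and Spred proteins act farther up, near the receptor, and lower the activation of Ras and Raf.

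Promoter windows from 250 bases before to 50 bases after the start site were given by RefSeq for 9 of the 10 genes on the GRCm38.p6 build, and the table held no window for Dusp4. Each window was searched on both strands for the cAMP response element (TGACGTCA) and its 5-letter core (TGACG), which overlaps it, for the AP-1 motif (TGANTCA), the EGR motif (GCGNGGGCG), the ETS motif (CCGGAAG) and the CArG box, the site of serum response factor. The following windows belong to Dusp1, Dusp2 and Dusp5, which were high in 1 WT sample and carried these motifs, and to Spry1 and Dusp10, which were called between the genotypes and carried none. The 10 genes do not divide this way. Spry2 and Spred1 were also high in that sample and carried none, Spred2 was not high there and carried the core, and Dusp4 was called but had no window. The printed windows are written 5′ to 3′ on the strand of the gene, and capitals mark the motif matches.
Dusp1, chr17:26508423-26508722, minus strand: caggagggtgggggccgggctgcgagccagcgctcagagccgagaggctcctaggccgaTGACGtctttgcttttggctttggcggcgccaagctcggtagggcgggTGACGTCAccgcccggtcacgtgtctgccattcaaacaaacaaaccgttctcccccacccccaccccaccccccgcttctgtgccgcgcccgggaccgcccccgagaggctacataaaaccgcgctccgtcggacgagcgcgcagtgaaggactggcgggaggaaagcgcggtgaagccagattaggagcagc
Dusp2, chr2:127335909-127336208, plus strand: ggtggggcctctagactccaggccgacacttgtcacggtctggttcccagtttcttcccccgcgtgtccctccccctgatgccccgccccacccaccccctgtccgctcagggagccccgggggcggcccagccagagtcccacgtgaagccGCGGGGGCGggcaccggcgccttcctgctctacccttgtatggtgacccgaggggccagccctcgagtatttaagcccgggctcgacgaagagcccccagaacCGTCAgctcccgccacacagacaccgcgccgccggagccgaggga
Dusp5, chr19:53528895-53529194, plus strand: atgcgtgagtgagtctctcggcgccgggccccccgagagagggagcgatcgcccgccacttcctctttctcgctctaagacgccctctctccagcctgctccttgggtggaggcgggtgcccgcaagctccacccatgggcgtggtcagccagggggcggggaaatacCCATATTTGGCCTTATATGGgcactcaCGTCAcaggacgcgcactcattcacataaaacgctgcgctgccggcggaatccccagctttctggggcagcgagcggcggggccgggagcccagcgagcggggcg
Dusp10, chr1:184034131-184034430, plus strand: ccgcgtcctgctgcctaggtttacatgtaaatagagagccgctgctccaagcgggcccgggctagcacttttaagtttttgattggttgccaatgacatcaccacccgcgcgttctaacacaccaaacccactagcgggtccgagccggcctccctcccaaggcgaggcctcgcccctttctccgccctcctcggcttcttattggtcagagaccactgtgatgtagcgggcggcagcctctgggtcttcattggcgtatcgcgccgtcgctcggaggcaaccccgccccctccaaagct
Spry1, chr3:37639697-37639996, plus strand: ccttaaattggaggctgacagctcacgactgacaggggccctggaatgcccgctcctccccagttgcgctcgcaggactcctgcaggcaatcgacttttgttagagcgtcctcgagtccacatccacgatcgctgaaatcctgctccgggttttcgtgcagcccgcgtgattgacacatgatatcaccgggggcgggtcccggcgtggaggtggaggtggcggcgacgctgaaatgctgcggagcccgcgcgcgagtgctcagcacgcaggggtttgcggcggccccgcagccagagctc

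Dusp1 held a full cAMP response element at -143 to -136 and a further copy of the core at -191 to -187. The first transcribed base is the first positive position, and there is no position 0. A full element was found in 1.79% of all 32851 RefSeq promoter windows and 2.87% of the windows of genes tested here, and the core in 20.8% and 29.3%. Dusp5 held 2 CArG boxes side by side, at -82 to -73 and -72 to -63, a motif found in 1.63% of all windows and 1.31% of those of genes tested, and the core on the opposite strand at -55 to -51. Dusp2 held an EGR motif at -98 to -90, present in 5.55% of all windows and in 9.79% of the windows of genes tested here, and the core on the opposite strand at 6 to 10. Spred2 held the core on the opposite strand at -51 to -47. None of the 9 windows held the letters of the AP-1 motif (7.81% of all windows, 5.26% of those of genes tested) or of the ETS motif (8.86% and 16.6%). These matches describe the letters in the windows and no binding was measured.

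**Figure D1:**
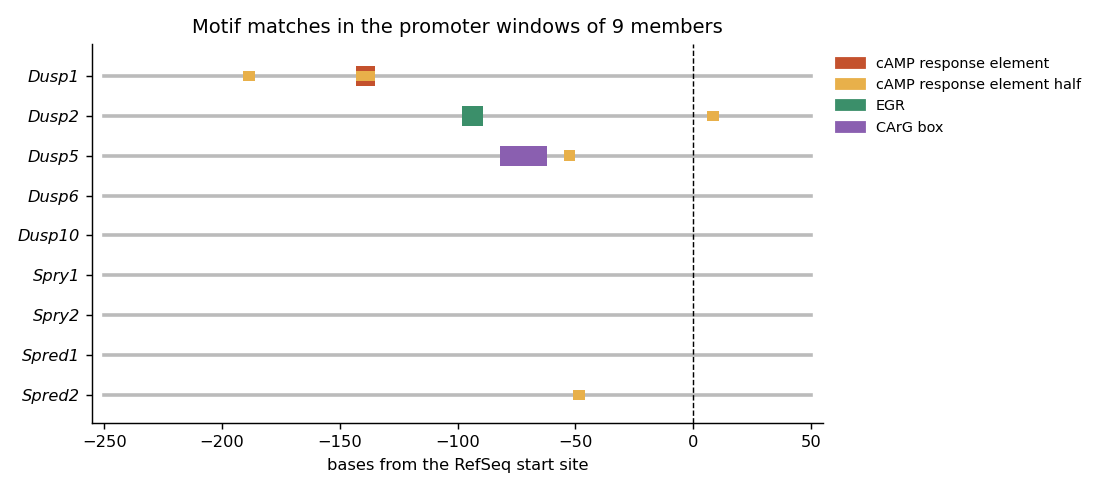
Motif matches in the promoter windows of 9 genes, with distance in bases from the RefSeq start site on the horizontal axis and 1 grey line per gene. Boxes mark matches by motif. Dusp1, Dusp2, Dusp5 and Spred2 carry at least 1 match, and the windows of Dusp6, Dusp10, Spry1, Spry2 and Spred1 carry none.

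The libraries held 32032631 to 40728419 counts, so that 3 counts, the smallest level told from 0, corresponded to 0.0737 to 0.0937 CPM, the unit of counts relative to the scaled library total. This limit covers counting error only. Zfp335 itself had 94.3 to 103 CPM in the WT samples and 37.0 to 40.2 CPM in the KO samples, a log2 fold change of -1.37 (edgeR adjusted p 2.14e-05), although its locus overlaps Pcif1 and the antisense gene Zfp335os and strand use in counting was not stated. WT replicate 3 stood apart from its own group. The median per-gene chi-square, divided by the value that counting noise alone would give, was 26.26 and 25.82 for its pairs with WT replicates 1 and 2, against 10.07 for WT replicates 1 and 2 and 5.27 to 6.07 for the KO pairs. Each of the 10 genes is therefore given with and without WT replicate 3. The fit without it compares WT replicates 1 and 2 alone with the KO samples. WT replicate 3 was singled out because of its values, so the small standard errors and p-values of that fit follow partly from this choice. Among markers of other cell types, summed myeloid markers were 16.7 to 28.0 CPM in WT and 47.4 to 55.02 CPM in KO, summed NK cell markers 3.59 to 5.83 and 14.9 to 16.2 CPM, and summed B cell markers 16.0 to 18.1 and 10.8 to 10.95 CPM. The T cell and Treg markers Cd4, Cd3e, Foxp3, Il2ra, Ctla4 and Ikzf2 were all expressed at over 300 CPM in every sample, but Foxp3 (log2 fold change -0.88, edgeR adjusted p 0.0122) and Ikzf2 (-1.11, adjusted p 6.07e-05) were lower in KO. The part of other cells in the results was not tested. In these bulk samples, fewer cells of a type and less RNA per cell cannot be told apart.

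Calls needed a fold change above 1.5 together with p under 0.05 and an edgeR adjusted p under 0.1. By this rule, 3 of the 10 genes were called, Dusp10 higher and Spry1 and Dusp4 lower in KO, against 24.4% of all 13594 genes tested. Genes called higher made up 11.9% and genes called lower 12.5% of the table, and 47% of all genes had an adjusted p under 0.1 with no cutoff on fold change, as did these 3 genes. The genotypes did not overlap for 5 of the 10 genes, against 53.8% of all genes. KO lay above WT in 1 of the 5, Dusp10, and below in 4 (26.2% and 27.6% of all genes). The median log2 fold change of the 10 genes was -0.13, and that of all genes was -0.035. The 10 genes are described in 3 groups. Spry1, Dusp4 and Dusp10 were called with all samples, although Spry1 was also low in WT replicate 3 relative to the other WT samples. Dusp1, Dusp2, Dusp5, Spry2 and Spred1 had their highest value in WT replicate 3, and for Dusp1 and Dusp2 the genotypes did not overlap either. Dusp6 and Spred2 were called neither with all samples nor without WT replicate 3.

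**Figure D2:**
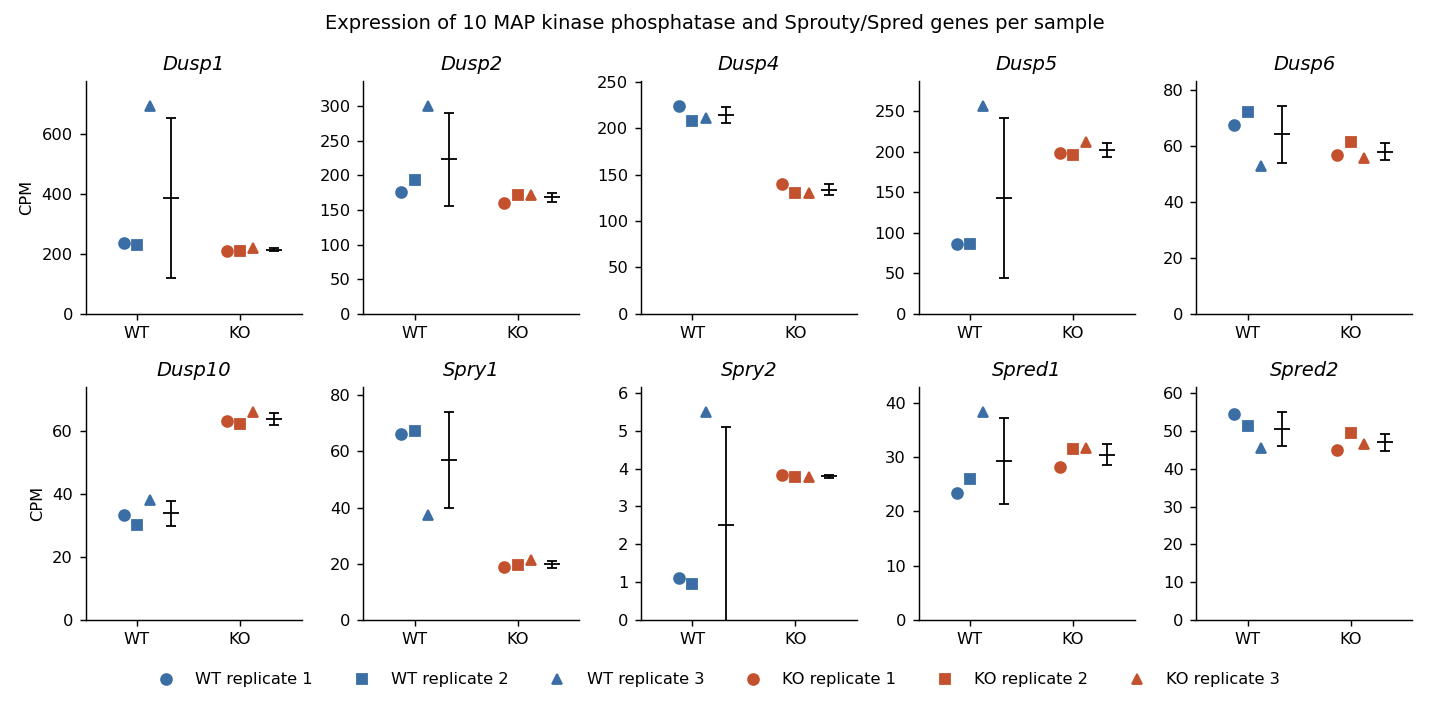
Expression of the 10 genes in each sample in CPM, with WT replicates in blue and KO replicates in orange, and the mean ± SD of the 3 samples of each genotype in black beside them. The lower end of the WT bar of Spry2 lies below 0 and is not drawn. The KO samples lie close together in every panel, and WT replicate 3 lies far above the other WT samples for Dusp1, Dusp5 and Spry2 and below them for Spry1.

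Spry1 showed the largest fold change of the 10 genes with all samples, and Spry2 was larger without WT replicate 3. Spry1 encodes a Sprouty protein that dampens Ras-ERK signaling below receptors. Its level was 66.3, 67.3 and 37.2 CPM in the 3 WT samples in order of replicate, and 18.6, 19.5 and 21.2 CPM in the 3 KO samples. All KO samples lay below all WT samples, and WT replicate 3 lay between the other WT samples and the KO samples. The mean fell from 56.9 ± 17.1 to 19.8 ± 1.31 CPM (SD, n = 3 each), so that KO kept 34.8% of the WT level (log2 fold change -1.52, SE 0.22, edgeR adjusted p 0.00131). It was -1.76 without WT replicate 3 (edgeR adjusted p 2.57e-10). The Spry1 locus, chr3:37639947-37644599 on the plus strand (GRCm38.p6), has the predicted transcript Gm42922 on the opposite strand, whose reads could not be separated from those of Spry1.

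Dusp4, also called MKP-2, encodes a nuclear phosphatase of ERK and JNK. It lies at chr8:34807610-34819894 on the plus strand. Its level was 224, 208 and 211 CPM in WT and 140.5, 131 and 131 CPM in KO. Dusp4 was even within each genotype, with WT replicate 3 at 0.977 times the mean of the other WT samples, and the genotypes did not overlap. The mean fell from 215 ± 8.58 to 134 ± 5.62 CPM (SD, n = 3 each), a log2 fold change of -0.68 (SE 0.067, edgeR adjusted p 0.000294), and of -0.69 without WT replicate 3 (adjusted p 2.06e-07). The difference was close to the fold cutoff, and when edgeR's glmTreat tested directly against a fold change of 1.5, Dusp4 was not past the threshold (adjusted p 0.198).

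Dusp10, also called MKP-5, moved the other way. It encodes a phosphatase that prefers JNK and p38 over ERK, and lies at chr1:184034381-184075636 on the plus strand. Its level was 33.4, 30.3 and 38.1 CPM in WT and 63.3, 62.1 and 66.0 CPM in KO. All 3 KO samples were well above all 3 WT samples, and the spread within each genotype was small. The mean rose from 33.9 ± 3.96 to 63.8 ± 1.98 CPM (SD, n = 3 each), which was 1.88-fold (log2 fold change 0.91, SE 0.098, edgeR adjusted p 0.00041). It was 0.999 without WT replicate 3 (edgeR adjusted p 6.17e-08). Within a library, the counts of Dusp10 per count of Dusp4 averaged 0.158 ± 0.019 in WT and 0.477 ± 0.027 in KO (SD, n = 3 each), a 3.01-fold difference that does not depend on how libraries were scaled. Since Dusp10 was called higher and Dusp4 lower in these data, a difference in their ratio follows from those calls and adds no separate evidence.

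The next 5 genes depended on WT replicate 3. Dusp1, or MKP-1, is an immediate-early gene that acts on p38 and JNK as well as ERK in the nucleus, and lies at chr17:26505591-26508472 on the minus strand. Its level was 234, 228 and 692 CPM in WT, with replicate 3 last, and 209.6, 210.45 and 219.8 CPM in KO. The KO samples were below all WT samples, but by little for WT replicates 1 and 2, whereas WT replicate 3 was 3.0 times their mean. Dusp1 differed by a log2 fold change of -0.85 (SE 0.40, edgeR adjusted p 0.134) with all samples and of -0.12 (SE 0.054, adjusted p 0.0809) without WT replicate 3, and neither was called. Leaving out WT replicate 1 or WT replicate 2 instead gave called values of -1.11 and -1.12 (edgeR adjusted p 0.0754 and 0.0678).

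Dusp2, or PAC-1, encodes a nuclear phosphatase found mostly in activated lymphocytes, and lies at chr2:127336159-127338377 on the plus strand. Its level was 176, 193 and 300.4 CPM in WT and 160.45, 172 and 172 CPM in KO. The KO samples lay just below WT replicate 1, and WT replicate 3 was 1.63 times the mean of the other WT samples. Dusp2 was not called, at a log2 fold change of -0.41 (SE 0.19, edgeR adjusted p 0.122), nor without WT replicate 3, at -0.14 (adjusted p 0.0738).

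Dusp5 encodes a nuclear phosphatase that is selective for ERK and is induced by ERK itself. It lies at chr19:53529145-53541809 on the plus strand, with AC137853.2 antisense to it, so part of its counts is uncertain. Its level was 86.1, 85.9 and 257 CPM in WT and 198, 196 and 212 CPM in KO. WT replicate 3 was above the KO samples, and the other WT samples were far below them, so that the genotypes overlapped. With all samples the log2 fold change of 0.50 was not called (SE 0.40, edgeR adjusted p 0.36). Without WT replicate 3, Dusp5 was called higher in KO, at 1.23 (SE 0.061, edgeR adjusted p 5.49e-10).

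Spry2 encodes the other Sprouty protein of the set and was its lowest member, at chr14:105891947-105896819 on the minus strand. It had 41, 31 and 183 counts in WT and 140, 152 and 133 counts in KO, or 1.11, 0.944 and 5.50 CPM and 3.83, 3.78 and 3.77 CPM. The order of samples was that of Dusp5, with WT replicate 3 highest at 5.34 times the mean of the other WT samples and the KO samples in between. Spry2 was not called with all samples (log2 fold change 0.59, SE 0.63, edgeR adjusted p 0.499) and was called higher without WT replicate 3 (1.87, SE 0.32, adjusted p 0.000181). The estimates of Spry1 and Spry2 thus had opposite signs in both fits, but with all samples that of Spry2 was smaller than its SE.

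Spred1 encodes an adaptor that brings neurofibromin, a Ras inactivator, to the membrane, and lies at chr2:117121071-117182279 on the plus strand. Its level was 23.4, 26.0 and 38.3 CPM in WT and 28.2, 31.5 and 31.7 CPM in KO. The KO samples lay between WT replicate 2 and WT replicate 3. It was not called, at a log2 fold change of 0.060 (SE 0.18, edgeR adjusted p 0.823) with all samples and 0.30 (adjusted p 0.0169) without WT replicate 3.

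Dusp6 and Spred2 varied least. Dusp6, or MKP-3, encodes the cytoplasmic phosphatase of ERK and is often used as a readout of ERK activity, and it lies at chr10:99263231-99267489 on the plus strand. Its level was 67.3, 72.2 and 52.8 CPM in WT and 56.55, 61.5 and 55.7 CPM in KO, where WT replicate 3 was the lowest of all 6 samples. Dusp6 was not called, at a log2 fold change of -0.15 (SE 0.12, edgeR adjusted p 0.374). Without WT replicate 3 it was past the p thresholds but under the fold cutoff, at -0.27 (adjusted p 0.00537). Spred2, the relative of Spred1 at chr11:19924442-20024026 on the plus strand, had 54.6, 51.2 and 45.6 CPM in WT and 44.9, 49.5 and 46.5 CPM in KO. Its samples overlapped, at a log2 fold change of -0.10 (SE 0.090, edgeR adjusted p 0.406), and of -0.18 (adjusted p 0.0642) without WT replicate 3. The missing calls do not show that either gene was equal in WT and KO.

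**Figure D3:**
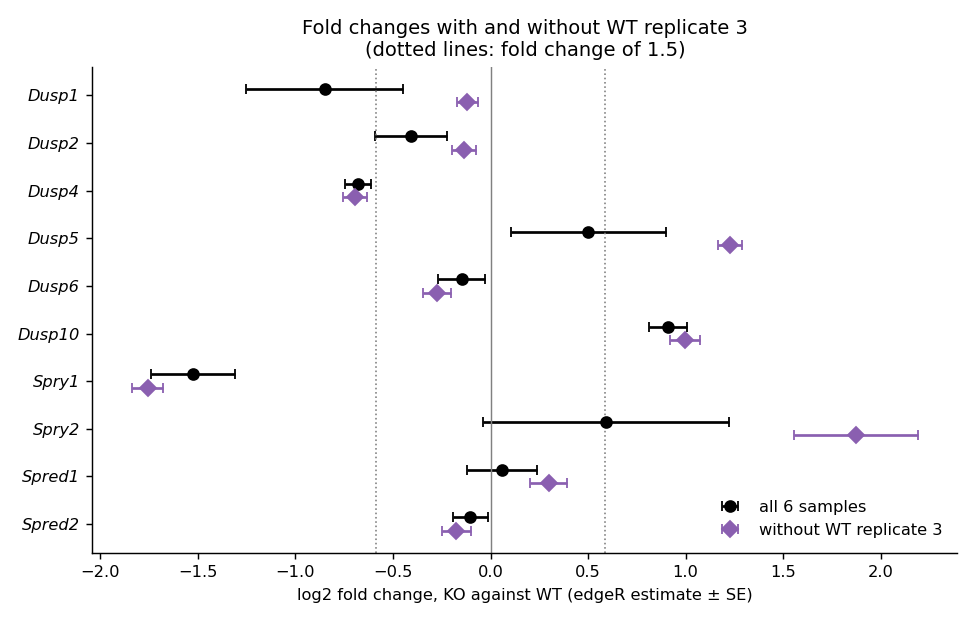
log2 fold changes of the 10 genes between KO and WT with their standard errors, with all 6 samples (black circles) and without WT replicate 3 (purple diamonds), where dotted lines mark a fold change of 1.5. Dusp4, Dusp10 and Spry1 stay outside the dotted lines on the same side in both fits, Dusp5 and Spry2 move beyond 1 without WT replicate 3, and Dusp1 moves from -0.85 to -0.12.

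Without WT replicate 3, which left WT replicates 1 and 2 as the only WT samples, 5 of the 10 genes were called, against 26.8% of 13663 genes tested. Dusp5, Dusp10 and Spry2 were higher and Dusp4 and Spry1 lower, against 13.6% and 13.2% of genes in these directions. WT replicate 3 was over 1.5 times the mean of the other WT samples in 5 of the 10 genes and over 1.5 times below it in 1, Spry1. Of all genes with a count in WT replicate 1 or 2, 11.4% lay above and 12.4% below by this margin. WT replicate 3 was the highest of all 6 samples for the same 5 genes, against 25.4% of all genes.

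Some genes of the same kind as Dusp1 were set apart in that library too. The list of early genes held genes induced by ERK signaling and other stimuli, many of them within minutes. Of 23 tested, 12 were over 1.5 times higher in WT replicate 3 than in the other WT samples. By this margin 3, Egr3, Egr4 and Etv4, were lower, and Etv4, a target of ERK, had its lowest value there. Egr1, Egr2 and Nr4a3, at 1.05, 0.811 and 0.931 times the mean of the other WT samples, were within the margin. Fos, an AP-1 subunit, was at 191, 191 and 712 CPM in WT and at 156, 152 and 158 CPM in KO. Jun, its partner, was at 122, 118 and 567 CPM in WT and at 315, 316 and 333 CPM in KO. Fos thus had the sample order of Dusp1, and Jun that of Dusp5 and Spry2. Of 15 genes induced by tissue handling and heat shock, 8 were over 1.5 times higher in WT replicate 3 and 12 had their highest value there. Among these, Ppp1r15a, a stress-induced phosphatase subunit whose locus overlaps Tulp2, was at 158, 155 and 706 CPM in WT and 315, 298 and 301 CPM in KO. Foxp3 was also highest in this library, at 1189.8 CPM against 738 and 642 CPM. What sets WT replicate 3 apart was not tested.

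**Figure D4:**
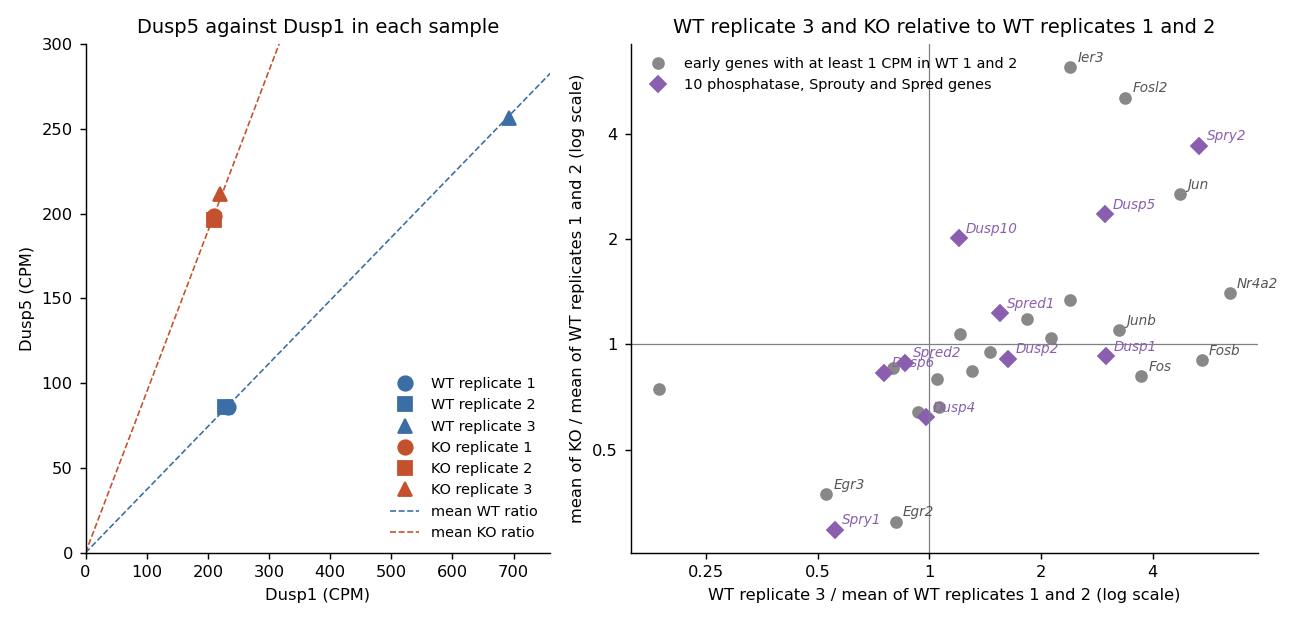
Left, Dusp5 against Dusp1 in CPM in each sample, with dashed lines for the mean Dusp5 to Dusp1 ratio of each genotype. Right, for the 10 genes (purple) and for early genes with at least 1 CPM in WT replicates 1 and 2 (grey), WT replicate 3 against KO, each divided by the mean of WT replicates 1 and 2, on log scales. The 3 WT samples lie on 1 line through 0 and the KO samples on a steeper one, and Dusp5 and Spry2 lie at the upper right with Jun while Dusp1 lies beside Junb and Fos near the horizontal line.

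Ratios of 2 genes within a library are free of scaling between libraries. Among the 45 pairs of the 10 genes, 25 had ratios that did not overlap between WT and KO. Of all 45, the ratio of Dusp5 to Dusp1 was picked because it varied least across WT. There were 0.368, 0.377 and 0.371 counts of Dusp5 per count of Dusp1 in WT replicates 1 to 3, although both genes were about 3 times higher in WT replicate 3, and 0.946, 0.933 and 0.964 in KO. The mean was 0.372 ± 0.0045 in WT and 0.948 ± 0.0154 in KO (SD, n = 3 each), which was 2.55-fold. In other pairs WT replicate 3 stood apart, as in the ratio of Dusp6 to Dusp1, at 0.288, 0.317 and 0.0763 in WT. The ratio of Spred1 to Dusp2 was next, at 0.133, 0.135 and 0.128 in WT and 0.176, 0.183 and 0.184 in KO. These pairs were chosen after their values were seen, and the ratios are a description.

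Levels of different genes were compared per kilobase of transcript (CPM per kb of the longest protein-coding GENCODE M21 model). In WT the mean order was Dusp1 (193 CPM per kb), Dusp2 (138), Dusp4 (78.3), Dusp5 (57.8), Dusp6 (22.9), Spry1 (20.5), Dusp10 (12.2), Spred2 (11.3), Spred1 (4.86) and Spry2 (1.21). In WT the sample ranges of Dusp1 and Dusp2 overlapped, as did those of Dusp4 and Dusp5, and each neighboring pair from Dusp6 to Spred2. Over WT replicates 1 and 2 alone, Dusp1 averaged 116 CPM per kb, close to Dusp2 at 114, while Dusp5 averaged 34.8 and Spry2 0.493. In KO the order was Dusp1 (107 CPM per kb), Dusp2 (104), Dusp5 (81.7), Dusp4 (48.9), Dusp10 (22.9), Dusp6 (20.7), Spred2 (10.6), Spry1 (7.14), Spred1 (5.07) and Spry2 (1.82). Only the ranges of Dusp1 and Dusp2 overlapped between neighbors in KO. Dusp5 stood above Dusp4 in every KO sample, as it did in WT replicate 3 (103.8 against 77.1 CPM per kb), and Dusp10 above Dusp6, while Spry1 went from the sixth to the eighth place. The summed level of the 10 genes was 420, 422 and 779.65 CPM per kb in WT and 402, 409 and 419 CPM per kb in KO. Dusp5 made up 8.30%, 8.23% and 13.3% of that sum in WT and 19.9%, 19.4% and 20.4% in KO.

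The other dual specificity phosphatase, Sprouty and Spred genes were read from a list of 23, of which 16 were tested. Of these, 3 were called (18.8%), all higher in KO, against 11.9% of all genes called higher, and the median log2 fold change was -0.022. Dusp16, or MKP-7, a phosphatase of JNK and p38, rose from 11.3, 10.9 and 8.56 CPM in WT to 25.1, 22.5 and 22.0 CPM in KO, a log2 fold change of 1.17 (SE 0.14, edgeR adjusted p 0.000583). Dusp3, or VHR, a small phosphatase of ERK and JNK, rose from 1.96 ± 0.045 to 4.83 ± 0.77 CPM (SD, n = 3 each, log2 fold change 1.30, edgeR adjusted p 0.00338). Dusp8, another phosphatase of JNK and p38, was near the limit of counting, at 0.353, 0.0304 and 0.33 CPM in WT and 0.794, 0.647 and 1.22 CPM in KO, a log2 fold change of 1.87 (SE 0.72, edgeR adjusted p 0.0759). In all 3 genes the KO samples were above the WT samples. Dusp3 overlaps Cfap97d1 and Gm20659, and Dusp16 lies opposite Gm36328, so their counts are uncertain. All 3 were also called higher without WT replicate 3, at 1.06, 1.28 and 2.15 for Dusp16, Dusp3 and Dusp8.

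The remaining 13 were not called. Their log2 fold changes were -0.55 for Dusp12, -0.50 for Dusp14, -0.28 for Dusp7, -0.27 for Styx, -0.25 for Dusp19, -0.23 for Dusp22, -0.18 for Dusp28, -0.11 for Dusp23, 0.066 for Dusp11, 0.21 for Spred3, 0.72 for Spry4, 0.78 for Dusp18 and 0.94 for Dusp9. Without WT replicate 3, Spry4 was called higher (1.27, edgeR adjusted p 0.0471) and Dusp14 lower (-0.62, adjusted p 0.0515). Spry4, at 0.733, 0.426 and 1.41 CPM in WT and 1.56, 1.39 and 1.28 CPM in KO, was low throughout, and WT replicate 3 lay among the KO samples. Dusp11, an RNA phosphatase of the same fold that does not act on MAP kinases, was the most abundant of the 16, at 265 to 301 CPM in WT and 285 to 297 CPM in KO.

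The kinases that these proteins act on were compared next. Of 23 tested genes of the Ras-ERK cascade, 3 were called (13%, median log2 fold change 0.10), against 24.4% of all genes. Ksr1, a scaffold that holds Raf, MEK and ERK together, rose from 69.9 ± 3.41 to 132 ± 3.69 CPM (SD, n = 3 each, log2 fold change 0.92, edgeR adjusted p 7.35e-05). Rasgrp4, a Ras activator, and Elk1, a transcription factor phosphorylated by ERK, fell by 1.501 and 0.67 on the log2 scale. Without WT replicate 3, Elk1 was not called (-0.50), and Araf (-0.65) and Rasgrp3, which was not tested with all samples (-1.75), were called lower. Of 22 other negative regulators of the pathway, 7 were called (31.8%, median -0.14). The Ras inactivator Nf1 (log2 fold change 0.64) and the adaptor Dok2 (0.71) were higher. Rasa1, a further Ras inactivator, was lower (-0.69), as were Dgka (-0.67) and Dgkz (-0.66), which remove the diacylglycerol that activates Ras in T cells, Sh2b3 (-0.65) and Dab2ip (-0.62). These 7 were also called without WT replicate 3, and Il17rd (-0.88) was added as lower. Rasgrp4, Elk1, Nf1, Rasa1, Dok2, Dgka, Dgkz and Sh2b3 each overlap a neighboring coding gene, and part of their counts may belong to it. The WT and KO samples of Dab2ip overlapped.

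Of 23 tested genes of the JNK and p38 branch, 4 were called (17.4%, median log2 fold change -0.012), against 24.4% of all genes. Map2k3, a kinase that activates p38, rose from 50.4 ± 3.15 to 114 ± 4.69 CPM (SD, n = 3 each, log2 fold change 1.17, edgeR adjusted p 4.16e-05), and Gadd45g, which binds an upstream kinase of p38 and JNK, rose from 19.7 ± 5.78 to 55.5 ± 2.18 CPM (1.496, adjusted p 0.000774). The p38 kinase genes Mapk11 and Mapk12, which are neighbors on chromosome 15, fell by 1.32 and 2.34 on the log2 scale (edgeR adjusted p 2.14e-05 and 0.00136). Mapk11 was at 96.2, 96.0 and 99.3 CPM in WT and at 36.7, 39.5 and 40.4 CPM in KO. Gadd45b had the sample order of Jun, at 37.95, 37.97 and 187 CPM in WT and 116, 114 and 115 CPM in KO, and it was called higher (1.59) without WT replicate 3.

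Of the 23 early genes, 7 were called (30.4%), against 24.4% of all genes. Egr2 and Egr3, transcription factors that are induced by the antigen receptor, were lower by 1.59 and 1.17 on the log2 scale, with 53.8, 55.8 and 44.5 CPM of Egr2 in WT and 16.5, 17.3 and 17.6 CPM in KO. Etv5 (-0.62), a target of ERK, Nr4a3 (-0.60) and Fos (-1.23) were also lower. Fosl2 (1.5004) and Ier3 (2.08) were higher. The median log2 fold change of this list was -0.35. Without WT replicate 3, 8 of these early genes were called, against 26.8% of all genes. Jun (1.42) and Atf3 (3.001) were added as higher, Fos, at -0.31, was no longer called, and the median was -0.077. Of the 15 handling and heat shock genes, 3 were called (20%, median 0.037). Hsp90aa1 (0.73) and Hspd1 (0.66), whose locus overlaps Hspe1, were higher and Btg2 (-0.69) lower. Without WT replicate 3 there were 7 calls, all higher, against 13.6% of all genes called higher, and Btg2 (-0.40) was not called.

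**Figure D5:**
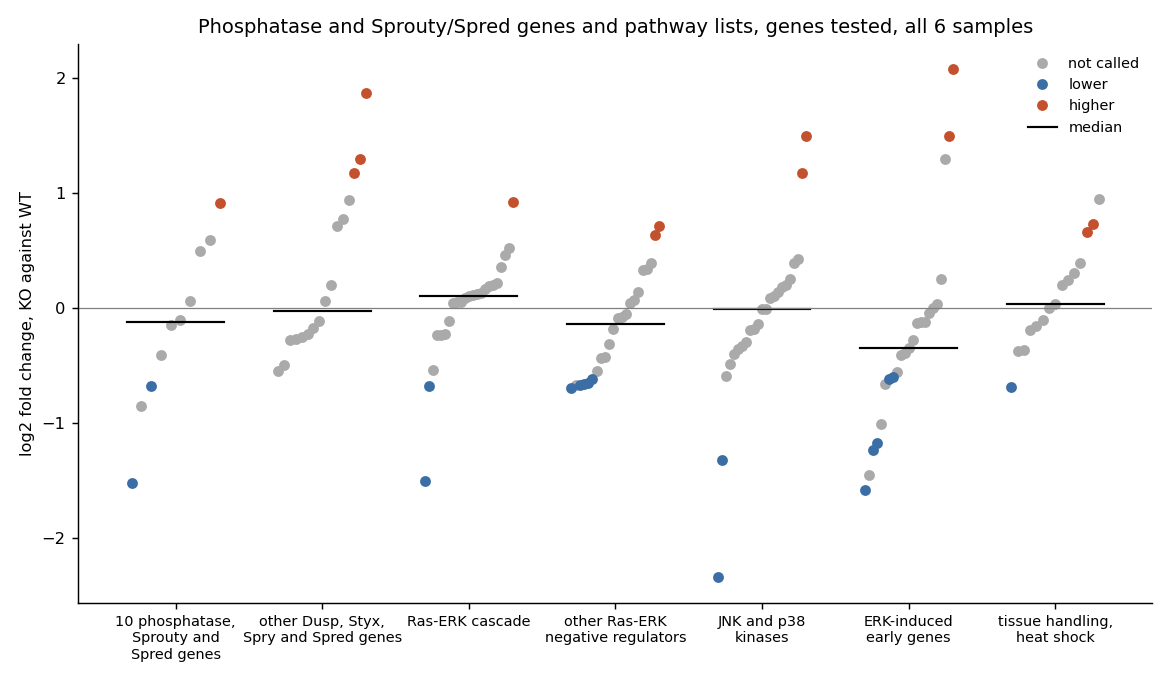
log2 fold change of each tested gene between KO and WT over all 6 samples, for the 10 genes and the 6 pathway lists, with called genes in orange (higher) and blue (lower), others in grey, and the median of each list as a black line. Every list holds both called and uncalled genes, and the medians lie between -0.35 and 0.10.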

How the data were processed

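The authors deposited a single table of unnormalized whole-number counts per gene for 6 samples. By the study's methods, SOAPnuke filtered the reads, HISAT2 placed each at a single position in mm10, and StringTie quantified genes. How whole numbers were obtained, the annotation and strand use were not stated. Total counts per sample are given above.

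Counts were filtered with filterByExpr (minimum count 10), scaled by TMM and tested over all genes with the quasi-likelihood F-test of edgeR 4.0.16 (R 4.3.3, two-sided, Benjamini-Hochberg adjustment, no covariate). The SE was the log2 fold change divided by the square root of F. DESeq2 1.42.0, other scalings, filters and cutoffs, glmTreat, a replicate block, GC and length offsets, and leaving out each sample were alternatives. On simulated counts for 13443 genes with 198 changed, edgeR recovered 78.8%, and unchanged genes made up 13.8% of its calls. Few genes were changed there, all by more than the fold cutoff, and no sample was set apart. These shares therefore do not carry over to the data.

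The 10 genes, lists and tests were chosen with earlier results of these data known. Named were the 10 genes, tested relatives, called genes of each list (at most 5 per direction, mean of at least 1 CPM), Zfp335, cell type markers, and the 2 genes most correlated with each of the 10. The early and handling genes described for WT replicate 3 and the gene pairs were chosen after their values were seen. Deviations from the genotype means correlated little between samples of 1 replicate number (correlations 0.0377, 0.0404 and -0.0116). This does not settle whether the numbers pair the samples. Gene positions came from the RefSeq gene table of GRCm38.p6, and strands, overlapping genes and transcript lengths from GENCODE M21. Some members of the lists are counted but not named here.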

Additional observations from a re-analysis of the deposited data

How the results depend on the processing

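Dusp10 and Spry1 stayed called in the same direction under all 15 alternatives, at 0.83 to 0.999 and -1.76 to -1.39, and Zfp335 at -1.42 to -1.23. Dusp4 lost its call under glmTreat alone. Spred1, near 0, ranged from -0.077 to 0.30 when 1 sample was left out and changed sign without WT replicate 1 (-0.077) and without WT replicate 2 (-0.022). Leaving out 1 sample gave 3 to 5 calls among the 10 genes, with 5 without WT replicate 3. It gave 2867 to 3667 calls over all genes, 2 to 5 among their relatives, 3 to 4 in the Ras-ERK cascade, 3 to 8 among other negative regulators, 4 to 5 in the JNK and p38 branch, 5 to 8 among early genes and 3 to 7 among handling genes. The highest values for relatives (5) and handling genes (7) came without WT replicate 3, and the lowest for negative regulators (3) without WT replicate 1. Dropping the fold cutoff at an adjusted p under 0.05 called 5244 genes in all, 8 of the cascade, 12 negative regulators, 11 of the JNK and p38 branch and 5 handling genes. glmTreat called 1686 genes in all and 3 early genes. It called 0 negative regulators, of which 3 had an unadjusted p under 0.05 and edgeR's main test and DESeq2 each called 7, and 0 handling genes, of which 1 had an unadjusted p under 0.05 and these tests each called 3. With offsets for GC content and length, 5 genes of the cascade and 4 negative regulators were called. The cause of these shifts was not tested, beyond the cutoffs themselves. No scaling moved the median of all genes by over 0.1.

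The replicate block was tried although pairing by replicate number was not settled. It called 3190 genes, 1629 higher and 1561 lower, and 3 of the 10 genes, 1 higher and 2 lower. In 4 of 6 samples the deviations correlated best with the sample of the same number. With 3 samples per genotype, an outlying sample such as WT replicate 3 sets the standard errors of Dusp1, Dusp5 and Spry2, and depth limits Spry2, Spry4 and Dusp8, with fewer than 200 counts of Spry2 in each sample.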

Other observations

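For each of the 10 genes, the genes whose log2 CPM followed it most closely over the 6 samples were sought among genes averaging 5 CPM or more. The 6 points share the division by genotype and the position of WT replicate 3, so a high Pearson correlation (r) describes the order of samples and nothing about shared control. Dusp1 was followed by Fosb, an AP-1 subunit (r = 0.9985), and Noct, a circadian phosphatase (0.9979). Fosb was at 117, 103 and 597 CPM in WT and at 97.4, 101 and 99.96 CPM in KO. Dusp2 was followed by Tasor2 (0.9971) and the ribosomal protein gene Rpl30 (0.9962). Dusp5 was followed by Il1r1, the receptor of interleukin-1 (0.9985), and Spty2d1 (0.9962). Il1r1 was at 1.25, 1.43 and 17.4 CPM in WT and at 9.74, 10.3 and 10.7 CPM in KO, so it also had WT replicate 3 above KO and the other WT samples below. Spry2 was followed by Rnf213 and Pdlim1 (0.9976 each) and Spred1 by Wac (0.9969) and Elf1 (0.9939).

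Among the genes called with all samples, Dusp4 was followed by Zfp467 (r = 0.9996) and by Plcg1 (0.9994), the phospholipase that makes diacylglycerol below the antigen receptor. Plcg1 was at 517, 482 and 496 CPM in WT and at 339.9, 323 and 316 CPM in KO (log2 fold change -0.61, edgeR adjusted p 0.00042). Spry1 was followed by Rab37 (0.9991) and Khdc4 (0.9982), and Dusp10 by Usp39 and Fkbp15 (0.9988 each). Dusp6 was followed by Ttbk2 (0.9885) and N4bp2 (0.9875), and Spred2 by Gmppa (0.9851) and Ermard (0.9843).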
